A study of Mus musculus with 71 samples.

Results

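The comparison described here sets the cerebellum of 18-month-old Csbm/m mice given saline against that of wild-type (WT) mice of the same age and treatment. It rests on 6 of the 71 arrays of the series, 3 per genotype, chosen by their sample labels alone. Csbm/m mice (written Csb) are homozygous for a mutation of Csb, which RefSeq names Ercc6. All mice in both groups were males on a C57BL/6 background, were kept on house chow and received an injection of saline each day for 1 week. Total RNA of the whole cerebellum was read on Illumina MouseRef-8 v2 bead arrays. The other arrays of the injection arm served for comparison: mice of 4 months given saline (3 Csb, 4 WT), mice of 4 months given 500 mg per kg per day of nicotinamide riboside, a precursor of NAD+ (NR; 3 Csb, 4 WT), and mice of 18 months given NR (4 Csb, 5 WT). A separate diet arm added 6 Csb and 4 WT arrays of mice aged 1 year on a standard diet. Replicates are numbered in the labels, which do not say whether each came from its own animal, and p-values cover only the spread among these arrays, which may be technical.

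CSB is a chromatin remodeller of the SWI/SNF family that binds RNA polymerase stalled at damaged bases and starts transcription-coupled nucleotide excision repair. Loss of its human counterpart causes Cockayne syndrome, a progeroid disease in which the cerebellum is among the regions that degenerate. Activated microglia, the resident phagocytes of the brain, clear debris through complement, Fc receptors and lysosomes, and switch on genes such as Gpnmb, Lgals3 and Trem2 when they do so.

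Each of the 6 arrays detected between 48.1% and 51.6% of the 25697 probes, and pairs of old saline arrays correlated at 0.940 to 0.993. Replicate 3 of each genotype correlated least with the other old saline arrays. On Csb replicate 3 the level of Cdkn1a, a p53 target and cell cycle inhibitor, was 12.21 against 8.54 and 9.05 on the other Csb arrays, where a level is a log2 normalized intensity. Mt2, a metallothionein, was at 10.41 there against 7.91 on both others. WT replicate 3 held almost no signal of the choroid plexus marker Ttr, at 7.18 against 14.56 and 14.73 on the other WT arrays. The part of these differences in the results below was not tested, and the main counts are given with and without both arrays. One further array stood apart: replicate 2 of the young Csb NR group, whose level was the lowest of the 13 Csb arrays for 14 of the 28 probes that were higher in old Csb mice (as it was for 11% of all probes tested). No probe is assigned to Ercc6 in the annotation used, so the targeted gene was not analysed here.

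In old saline mice 32 of 13948 probes differed by genotype in limma's moderated test, with an adjusted p (Benjamini-Hochberg) under 0.05 (0.229% of the probes tested). Of these, 28 were higher (0.201%) and 4 lower (0.0287%) in Csb, and 31 carry a gene symbol, which gives 29 genes. At an unadjusted p under 0.05 the counts were 719 higher (5.15%) and 991 lower (7.10%). By sign alone, 6550 of the 13948 probes were higher in Csb. Most called genes are described in 2 sets formed after their values were seen: genes of phagocytes and immune cells that were high in Csb, and genes of chromosome 14, many of them low on the old WT saline arrays. For 9 of the 29 genes a further probe, 12 in all, passed the filter without being called; 11 of these had the sign of the called probe and 1 the opposite sign, and the values below are those of the called probe unless another is named. Without both arrays numbered 3, 17 probes were called, 14 of them among the 32. A fit of these 6 arrays alone called 10, with 8 among the 32. Array weights raised the count to 240. With each of 7 arrays left out in turn, 15 of the 32 probes passed every time, namely both of Gpnmb, 1 of Fcgr2b, and the called probe of 1700123O20Rik, Samd4, Ang, Apex1, Abhd4, Psmb5, Tmem260, Ddhd1, Lgals3, Ogfod3, Cd109 and Gpd2. Of these, Apex1, Ogfod3, Cd109, Abhd4, Psmb5, Tmem260, Ddhd1 and the Fcgr2b probe missed the threshold in the fit of the 6 arrays alone (limma adjusted p = 0.0601 to 0.366). Among single arrays left out, calls were most often lost without WT replicate 2 (18 of the 32 remained) or WT replicate 3 (17 remained).

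The largest phagocyte signal came from Gpnmb, which encodes a transmembrane glycoprotein of lysosome-rich macrophages and microglia. On its brighter probe (ILMN_2648669) the Csb arrays read 11.14, 11.63 and 11.55 and the WT arrays 8.11, 8.24 and 7.76. The Csb mean of 11.44 ± 0.26 (SD, n = 3) lay 3.41 ± 0.43 (SE) log2 units above the WT mean of 8.04 ± 0.24, a 10.6-fold difference (limma, adjusted p = 4.5e-05). The genotypes did not overlap, which held for 14.6% of all probes tested, and the highest WT array of any group read 8.85. The dimmer probe of Gpnmb (ILMN_2614655) was not well above background on any old WT array and was at least 3.79-fold higher in Csb (adjusted p = 4.18e-08 by limma).

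Lgals3, which encodes galectin-3, a lectin released by activated phagocytes, read 10.71, 10.74 and 11.16 in Csb against 8.60, 8.33 and 8.10 in WT. That is a 5.75-fold difference (log2 fold change 2.52 ± 0.39, limma adjusted p = 0.00091). The genotypes did not overlap for Lgals3, which held for 14.6% of all probes tested. Fcgr2b, the inhibitory receptor for IgG, was measured by a pair of probes, and both were higher in Csb. Its brighter probe (ILMN_1228657) read 8.23, 8.43 and 8.94 in Csb and 6.72, 6.89 and 6.48 in WT, a 3.57-fold difference (log2 fold change 1.83 ± 0.32, adjusted p = 0.00384). Without Csb replicate 3 this probe missed the threshold (adjusted p = 0.0536 by limma), while the dimmer one passed with each array left out.

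Further called genes of myeloid and lymphoid cells changed in the same direction. Fcgr4, an activating IgG receptor, read 7.20, 7.26 and 8.79 in Csb against 6.37, 6.48 and 5.60 in WT (3.03-fold, limma adjusted p = 0.0422), with 2 of the 3 WT arrays above background. Wfdc17, a secreted whey acidic protein made by activated macrophages, read 6.84, 6.95 and 8.32 against 5.92, 5.50 and 4.94 (3.78-fold, adjusted p = 0.00354), with 1 WT array above background. For both genes Csb replicate 3, the array with high Cdkn1a, was the highest of the 6. Cyp4f18, a fatty acid hydroxylase of myeloid cells, read 7.11, 7.12 and 7.41 in Csb against 6.07, 5.68 and 4.86 in WT (3.21-fold, adjusted p = 0.0182), again with 1 WT array above background. Slamf9, a receptor of the SLAM family on antigen-presenting cells, read 8.18, 8.09 and 7.52 against 6.89, 6.31 and 6.31 (2.69-fold, adjusted p = 0.0497). Fcgr4, Wfdc17, Cyp4f18 and Slamf9 did not overlap between genotypes, which held for 14.6% of all probes tested. Klhl6, an adaptor of lymphoid cells, was 2.07-fold higher (adjusted p = 0.0263), while its second probe had a log2 fold change of 0.85 (adjusted p = 0.083). Il10ra, the ligand-binding chain of the interleukin-10 receptor, was at least 1.38-fold higher with no WT array above background (adjusted p = 0.0497). Ccl5, a chemokine that attracts T cells, was above background on 2 Csb arrays and no WT array (at least 1.27-fold higher, adjusted p = 0.0214). Without these 2 arrays the Ccl5 probe would not have passed the filter, so the group that read high also admitted it to the test. Wfdc17 lost its call without Csb replicate 3 or WT replicate 3 (highest limma adjusted p = 0.0695). Cyp4f18, Klhl6, Ccl5, Fcgr4 and Slamf9 each lost theirs with 4 of the 7 arrays left out in turn and Il10ra with 5, always including WT replicates 2 and 3, with highest adjusted p-values between 0.157 and 0.393. With the replicate number as a block, Klhl6 and Fcgr4 no longer passed the threshold (adjusted p = 0.0608 for each).

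**Figure D1:**
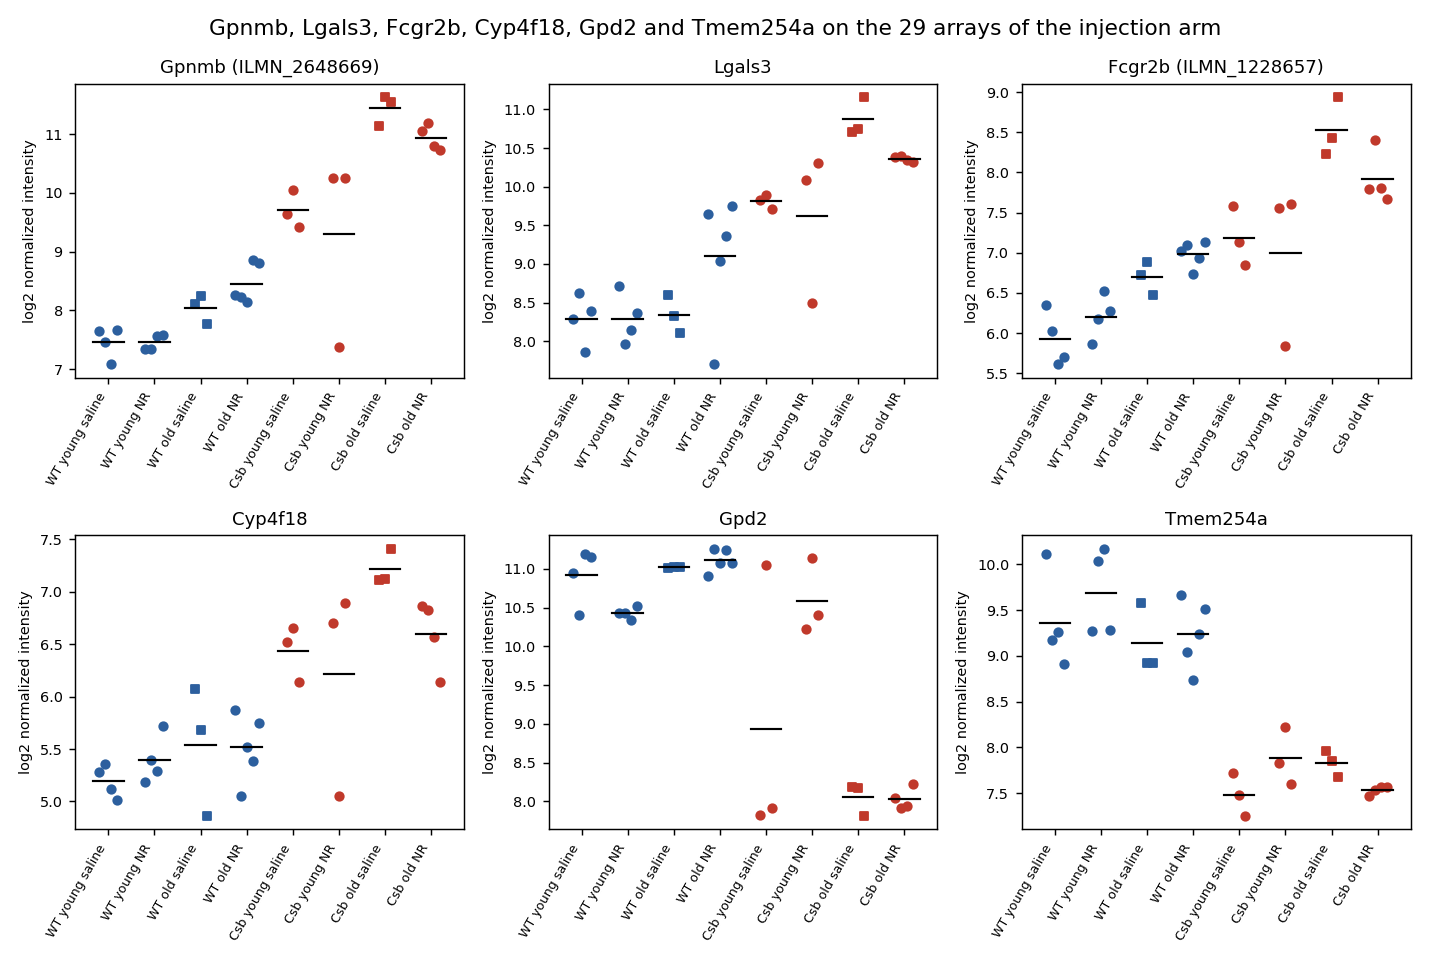
Log2 normalized intensity of 6 called genes on each of the 29 arrays of the injection arm (1 point per array, squares for the old saline groups, black bars for group means, red for Csb and blue for WT; panels have separate vertical axes that do not start at 0). Gpnmb, Lgals3, Fcgr2b and Cyp4f18 were highest in old Csb saline mice, 1 young Csb NR array lay at the WT level of these genes, and Tmem254a parted the genotypes on all 29 arrays.

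The same genes were read in mice that do not enter this comparison. Gpnmb was also called in young saline mice (log2 fold change 2.24 for the brighter probe, adjusted p = 0.018), in old NR mice (2.48, adjusted p = 0.000529) and on the standard diet (1.43, limma adjusted p = 2.81e-06). Its level in young Csb saline mice, 9.64, 10.05 and 9.42, lay between the old Csb and the WT levels. The young Csb NR arrays read 10.26, 7.37 and 10.26, so that replicate 2 stood among the WT arrays. Lgals3 gave a log2 fold change of 1.52 in young saline mice and 1.26 in old NR mice, neither past the threshold (adjusted p = 0.152 and 0.160). The genotype difference of these genes was not shown to differ between ages or treatments: none of them was called in the test of genotype by age or of genotype by NR.

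Genes of microglial activation and complement had mostly positive log2 fold changes in old Csb mice, without a single call. Of 19 genes, 15 had a probe that passed the filter on dim probes, 19 probes in all. None was called, 13 were higher and 0 lower at an unadjusted p under 0.05, and the median log2 fold change was 1.13, beside -0.02 over all probes tested. C4b, a component of the classical complement pathway, read 10.92, 10.88 and 11.05 in Csb against 9.30, 9.17 and 8.93 in WT (log2 fold change 1.82 ± 0.41, limma adjusted p = 0.056). Cst7, an inhibitor of lysosomal cathepsins, read 6.71, 6.76 and 6.38 against 5.43, 5.38 and 5.79 in WT, where no array was above background (at least 1.73-fold, adjusted p = 0.0515). Both genes separated the genotypes on every old saline array, as did 14.6% of all probes tested. The receptor Trem2 had a log2 fold change of 1.48 and the C1q chains C1qa, C1qb and C1qc 1.32, 1.18 and 1.13. Values under 0 were those of genes of resting microglia: the log2 fold change was -0.27 for the fractalkine receptor Cx3cr1, -0.16 for Tmem119 and -0.09 for the purinergic receptor P2ry12. The set of microglial cell markers, which shares members with this list and holds these 3 as well, had 8 of 11 probes higher by sign, 6 of them at an unadjusted p under 0.05, 0 called by limma, and a median of 0.94 (0.86 without both arrays numbered 3).

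The summed intensity of this list ranged from 11358 to 14526 in Csb and from 4136 to 7189 in WT. Whole tissue was measured, so more microglia and more RNA of these genes per microglial cell cannot be told apart. Leaving out both arrays numbered 3 gave a median of 1.33, with 14 probes higher at an unadjusted p under 0.05. Of the 17 probes called in that setting, 1 was a member. The calls over all probes rose or fell with the setting as well. Members were 8 of 67 called probes without young Csb NR replicate 2, which is in neither group. They were 14 of 240 with array weights and 3 of 45 without background correction. With the compared groups alone they were 2 of 10, and with the replicate block 0 of 33. Medians for the same probes were 1.21 in young saline mice and 0.87 in old NR mice.

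Interferon and antigen presentation genes were also higher by sign, for 16 of 16 probes (6550 of 13948 over all probes tested), with a median log2 fold change of 0.42. None was called, and 5 were higher at an unadjusted p under 0.05 (5.15% over all probes tested). B2m, the light chain of class I molecules, read 13.10, 13.30 and 13.01 in Csb against 12.60, 12.80 and 12.29 in WT (log2 fold change 0.57, limma adjusted p = 0.248). Its groups did not overlap, as for 14.6% of all probes tested. H2-D1, a class I heavy chain, had a log2 fold change of 0.57 (adjusted p = 0.331) and overlapped between groups, since Csb replicate 1 (6.37) lay below WT replicate 3 (6.41).

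**Figure D2:**
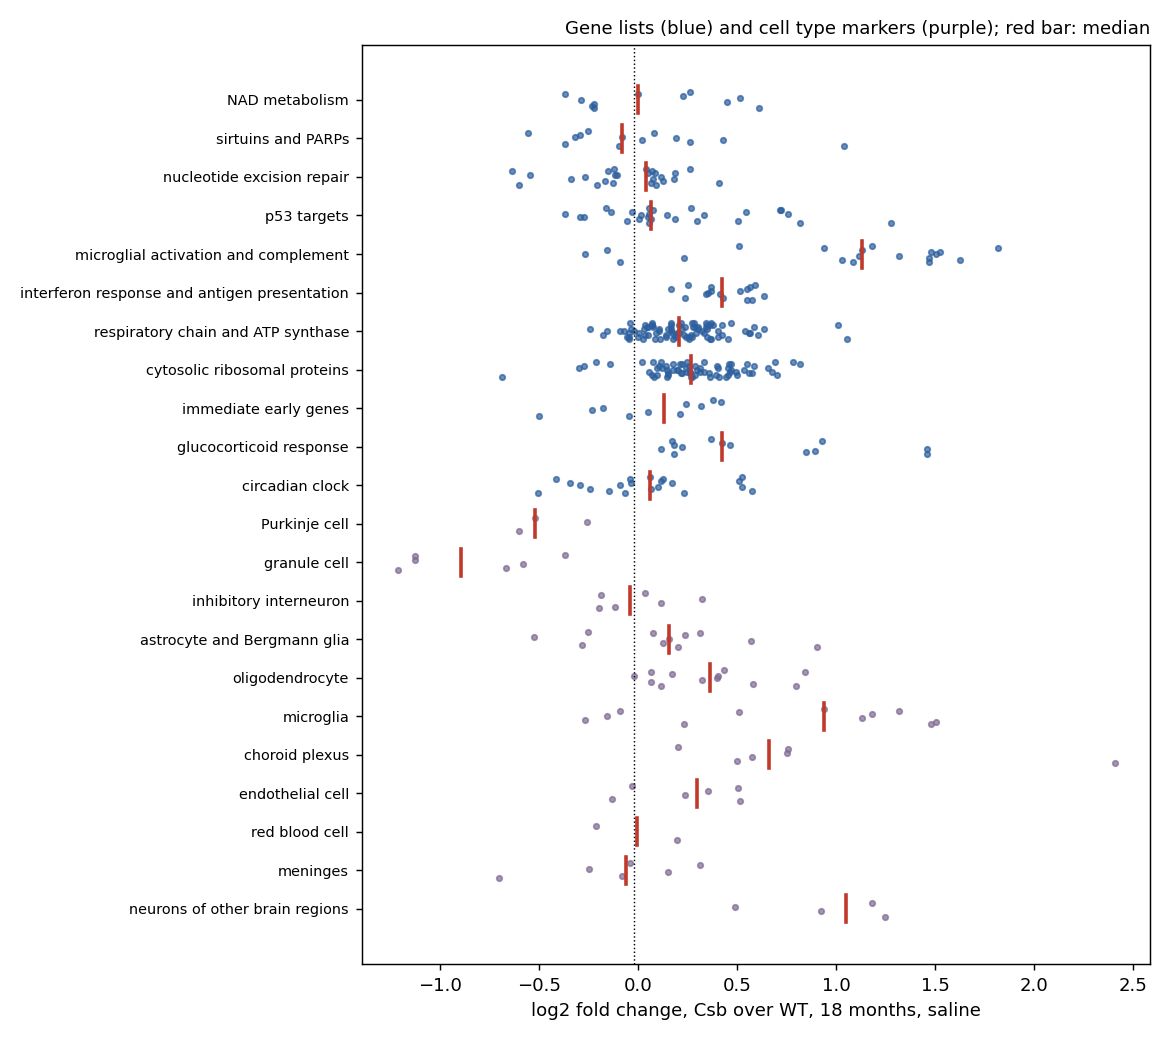
Log2 fold change (Csb over WT, old saline mice) of every probe kept of the 11 gene lists and 11 marker sets, 1 point per probe, with the list median as a red bar and the median of all probes tested as a dotted line. Microglial activation and complement genes had a median of 1.13 and granule cell markers one of -0.90.

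The largest decrease was that of Gpd2, the mitochondrial glycerol-3-phosphate dehydrogenase that passes electrons from cytosolic NADH to the respiratory chain. It read 8.19, 8.17 and 7.81 in Csb against 11.01, 11.03 and 11.03 in WT, 7.80-fold higher in WT (log2 fold change -2.96 ± 0.46, limma adjusted p = 0.000922). The old Csb NR arrays lay at the same low level, 7.91 to 8.22, and the difference was called there too (-3.09, adjusted p = 5.66e-05). In young Csb mice the level was not uniform: saline replicates 1 and 3 read 7.83 and 7.91, while replicate 2 read 11.05 and the NR arrays 10.22, 11.14 and 10.40, as high as WT. On the standard diet Gpd2 was lower in Csb as well (-1.28, adjusted p = 0.000794). A second, dimmer probe of Gpd2 (ILMN_1215797) read 6.61 ± 0.17 in Csb and 6.82 ± 0.23 in WT (SD, n = 3), with a log2 fold change of -0.22 (limma adjusted p = 0.711), so the size of the difference depended on the probe.

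Tmem254a, a transmembrane protein gene on chromosome 14, was the only probe of 13948 whose level separated all Csb arrays from all WT arrays of the injection arm. In old saline mice it read 7.96, 7.85 and 7.68 in Csb against 9.58, 8.92 and 8.92 in WT (log2 fold change -1.31 ± 0.28, limma adjusted p = 0.0344). The difference was called in young saline mice (-1.87), in old NR mice (-1.70) and on the standard diet (-1.88), adjusted p = 0.000788, 0.000216 and 1.22e-10. Young Csb NR replicate 2, which read like WT for Gpnmb and Gpd2, stood with Csb for this gene at 8.22. Its call in old saline mice was lost when any 1 of these 6 arrays was left out (highest adjusted p = 0.152 by limma). The gene has near-identical copies beside it, so which copy the probe read is uncertain. It lies 6.59 Mb proximal of Ercc6 and was the only called gene within 10 Mb of it, 1 of 31 called probes with a position (3.23%) against 0.609% of all probes tested.

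Pisd-ps2, a pseudogene related to phosphatidylserine decarboxylase, was 2.23-fold higher in WT (adjusted p = 0.025 by limma, at most 0.297 with 1 array left out, lost without Csb replicate 2, WT replicate 2 or WT replicate 3) and may share signal with its parent gene. The fourth lower probe has no gene name in the annotation (ILMN_2776710). It read 7.15, 7.18 and 7.10 in Csb against 8.34, 8.78 and 9.39 in WT (-1.69 ± 0.36, adjusted p = 0.035). This call remained without WT replicate 1 but with none of the other old saline arrays left out (highest adjusted p = 0.331 by limma).

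Many of the other called genes shared a chromosome. Of the 31 called probes with a position in RefSeq (GRCm38.p6), 12 lie on chromosome 14, which carries Ercc6. That is 38.7%, against 3.40% of all probes tested. Apart from Tmem254a, all 11 were higher in Csb and lie between 13.1 and 28.8 Mb distal of Ercc6. This stretch was delimited by these 11 probes after the values were seen. It holds 134 probes of 100 genes that passed the filter, with 0 called lower, against 0.0287% of all probes tested. At an unadjusted p under 0.05, 23 of the 134 were higher and 13 lower (5.15% and 7.10% over all probes tested). The 23 include the 11 probes that delimited the stretch, so their share is raised by how the stretch was chosen. With both arrays numbered 3 left out, 10 of 17 called probes lay on chromosome 14. In a fit of the 6 arrays alone, 4 of 10 did.

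**Figure D3:**
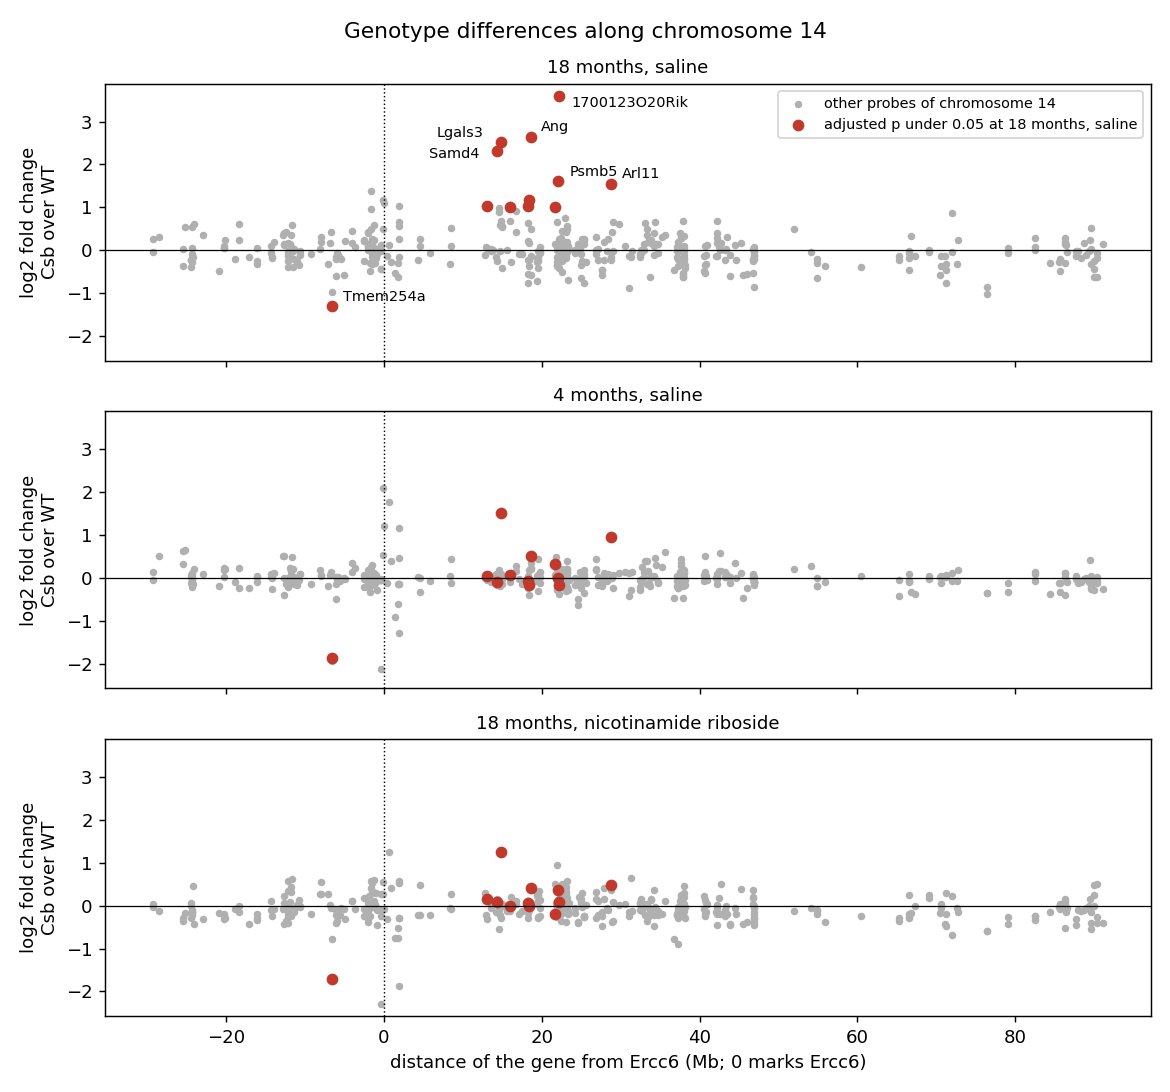
Log2 fold change (Csb over WT) of every probe kept on chromosome 14 against the distance of its gene from Ercc6 in Mb, in old saline, young saline and old NR mice; red points mark the 12 probes called in old saline mice. High values of up to 3.59 between 13.1 and 28.8 Mb appear in old saline mice, while the called probes of 1700123O20Rik and Samd4 lie near 0 in both other comparisons.

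The smallest p of all was that of a probe (ILMN_2597332) of 1700123O20Rik, a gene known by its RIKEN identifier. This probe read 8.27, 8.25 and 7.99 in Csb against 4.63, 4.69 and 4.42 in old WT saline mice. No WT array of this group was above background, and the Csb level was at least 5.08-fold higher (fitted log2 fold change 3.59 ± 0.19, limma adjusted p = 2.01e-12). Old WT mice given NR read 8.11, 7.80, 7.91, 8.31 and 8.39, and the young WT saline arrays 7.85, 8.00, 7.98 and 8.74. On this probe the low group was thus the old WT saline mice, and every other group of either genotype stood at the Csb level. Its log2 fold change was -0.16 in young saline mice and 0.10 in old NR mice, neither past the threshold. The gene's second probe (ILMN_2999447) did not show the pattern: it read 10.48 ± 0.19 in Csb and 10.26 ± 0.18 in WT (SD, n = 3), with a log2 fold change of 0.21 (limma adjusted p = 0.518). A level is the signal of a probe, and whether the probes of chromosome 14 match the sequence carried by each group of mice was not tested, since probe sequences were not used here.

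Samd4, an RNA-binding repressor of translation, showed the same arrangement. It read 9.12, 9.08 and 8.73 in Csb and 6.90, 6.46 and 6.60 in WT, a 5.00-fold difference (2.32 ± 0.20, limma adjusted p = 4.18e-08). Old WT NR arrays read between 8.90 and 9.19. Ang, which encodes the secreted ribonuclease angiogenin, read 7.73, 7.80 and 7.48 in Csb and 5.26, 5.07 and 4.75 in WT, where no array was above background. It was at least 3.59-fold higher in Csb (adjusted p = 2.26e-06).

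DNA repair genes were among those in the stretch. Apex1 encodes the main endonuclease that cuts abasic sites in base excision repair. It read 9.98, 9.94 and 10.10 in Csb against 8.89, 8.69 and 8.94 in WT, a 2.25-fold difference (1.17 ± 0.13, limma adjusted p = 4.33e-06) on one probe (ILMN_2776952). A second, dimmer Apex1 probe (ILMN_2918114) had a log2 fold change of 0.17 (adjusted p = 0.745). Parp2, a poly(ADP-ribose) polymerase that consumes NAD+ at DNA breaks, read 8.79, 8.77 and 8.29 against 7.43, 7.23 and 8.06 on one probe (ILMN_2598576; 1.04 ± 0.22, adjusted p = 0.0333). A second Parp2 probe (ILMN_1226731) went the other way, at -0.56 (adjusted p = 0.29), so the probes of this gene disagreed. The first lost its call without Csb replicate 1 or 2 or WT replicate 1 or 2 (highest adjusted p = 0.231). Psmb5, a catalytic subunit of the proteasome, was 3.05-fold higher in Csb (10.45, 10.37 and 10.01 against 8.97, 8.58 and 8.45; adjusted p = 0.000572).

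Promoters of 2 of these genes are shown because a probe of each was low on the same old WT saline arrays. Each is a window of 300 bases around the annotated start, on the plus strand, from RefSeq GRCm38.p6, with the motif CACGTG, an E-box that reads the same on both strands, in capitals.
1700123O20Rik, chr14:54685921-54686220: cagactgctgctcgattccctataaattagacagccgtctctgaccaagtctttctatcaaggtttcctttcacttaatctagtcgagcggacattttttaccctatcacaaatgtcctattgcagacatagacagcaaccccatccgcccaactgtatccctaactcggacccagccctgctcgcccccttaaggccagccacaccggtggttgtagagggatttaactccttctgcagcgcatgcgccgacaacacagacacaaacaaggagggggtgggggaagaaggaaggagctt
Apex1, chr14:50924699-50924998: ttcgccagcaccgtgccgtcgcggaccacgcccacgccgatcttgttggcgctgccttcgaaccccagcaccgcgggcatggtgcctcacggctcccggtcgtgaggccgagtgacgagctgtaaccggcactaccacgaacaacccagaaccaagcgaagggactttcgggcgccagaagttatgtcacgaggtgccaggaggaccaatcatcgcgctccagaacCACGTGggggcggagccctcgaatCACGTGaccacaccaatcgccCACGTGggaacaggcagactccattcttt
The window of Apex1 holds the motif 3 times and that of 1700123O20Rik 0 times. Among called genes 23 of 29 have a promoter in the table, and 3 of them hold the motif (13%), against 8.09% of all 27025 genes with one. Besides Apex1 these are Parp2 and Slamf9.

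Across all probes, the 3 old WT saline arrays lay below every other array of the injection arm for 16 probes (0.115%) and above every other for 3 (0.0215%). Of the 15 such low probes with a position, 13 lie on chromosome 14, all in the same stretch. They include the called probes of 8 genes, namely 1700123O20Rik, Samd4, Ang, Apex1, Parp2, Psmb5, Abhd4 (a lipase of N-acyl phospholipids) and Tmem260. The others are a second probe of Tmem260, 2 of the 3 probes of Fbxo34 (0.53 and 0.57, the third having -0.42), and 1 each of Ttc5 (0.63) and Slc7a8 (0.26), none of them called. Other probes of Ttc5 had 0.20 and -0.77, and another of Slc7a8 had -0.42. Outside chromosome 14 the only called gene of this kind was Ogfod3, a predicted oxygenase gene on chromosome 11, which read 8.15, 8.72 and 7.95 in Csb against 7.11, 6.75 and 7.01 in WT (1.32 ± 0.17, limma adjusted p = 4.5e-05). Over all 134 probes of the stretch the median log2 fold change was 0.02. Beside Lgals3, the remaining called genes of the stretch were Ddhd1, a phosphatidic acid phospholipase gene (log2 fold change 1.03 ± 0.17, adjusted p = 0.0016; 0.05 on its second probe, adjusted p = 0.934), and the ARF-like GTPase gene Arl11. Arl11 read 7.05, 7.10 and 5.92 in Csb against 5.40, 5.08 and 4.94 in WT, where no array was above background (at least 1.82-fold higher, adjusted p = 0.0131). Without Csb replicate 1 or 2 or WT replicate 2 or 3 its call was lost (highest adjusted p = 0.129).

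**Figure D4:**
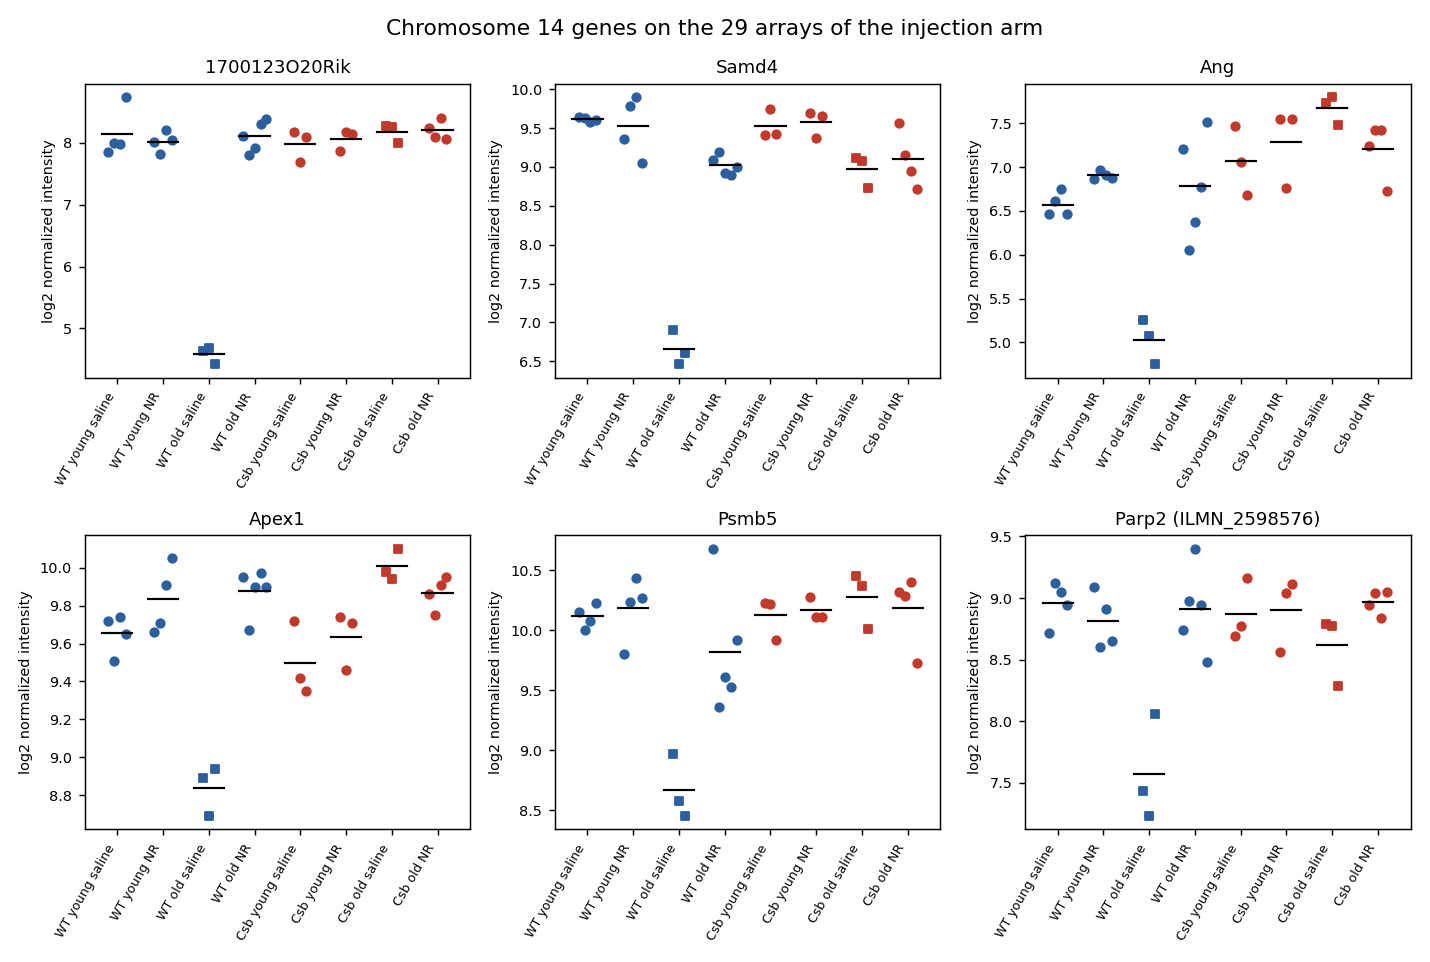
Log2 normalized intensity of called probes of 6 chromosome 14 genes on each of the 29 arrays (1 point per array, squares for the old saline groups, black bars for group means; vertical axes do not start at 0). For all 6 probes the 3 old WT saline arrays lie below the 26 others, the old WT NR arrays included.

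The genotype difference in old saline mice was tested against that in young saline mice and against that in old NR mice. Genotype by age called 5 probes, all higher in the old difference (0.0358%): 1700123O20Rik (3.75 ± 0.26), Samd4 (2.41 ± 0.27), Ang (2.14 ± 0.38), Apex1 (1.33 ± 0.18) and Ogfod3 (1.22 ± 0.23). Genotype by NR called 5 as well (0.0358%): 1700123O20Rik (3.50 ± 0.25), Samd4 (2.24 ± 0.26), Ang (2.23 ± 0.36), Abhd4 (1.19 ± 0.19) and Apex1 (1.18 ± 0.17), each a fitted difference of log2 fold changes with its SE. Since no old WT saline array was above background for 1700123O20Rik and Ang, the size of their differences is not measured. All but Ogfod3 lie on chromosome 14. These tests share the 6 old saline arrays. The young saline comparison called 7 probes (0.0502%), of which 3 were called in old saline mice in the same direction, and the old NR comparison called 8 (0.0574%), of which 4 were.

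Diet-arm mice gave a reading of the called probes on arrays of another experiment. Of the 32 probes, 29 passed the filter there, and the standard diet comparison called 13.8% of all its probes. It called 5 of the 29 in the same direction, those of Gpnmb, Gpd2, Tmem254a, Ddhd1 (0.87, adjusted p = 0.00101) and Wfdc17 (0.64, limma adjusted p = 0.0436). One was called in the opposite direction, Acta2 (-0.64, adjusted p = 0.0176), a smooth muscle actin that was 2.37-fold higher in old Csb saline mice. Its 3 other probes had log2 fold changes of 0.26 to 0.58 there, none called. On the called probe its 3 Csb arrays read 8.28, 9.27 and 10.03, replicate 3 being the highest, and its call was lost with the replicate block (adjusted p = 0.0608) and without Csb replicate 2 or 3 or WT replicate 2 or 3 (up to 0.305). 1700123O20Rik, Samd4, Ang and Apex1 were not called on the standard diet.

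A few called genes belong to neither set. Cd109, a co-receptor of TGF-beta signalling, was at least 1.00-fold higher in Csb with no WT array above background (fitted 1.06 ± 0.15, limma adjusted p = 0.000456), so that its size is not measured. For Upp1, a uridine phosphorylase, the lower bound was 1.15-fold (adjusted p = 0.0105). Its 2 other probes had log2 fold changes of 1.07 and 0.73, neither called. In the injection arm the called Upp1 probe was above background only on the 3 Csb old saline arrays. The probes of Upp1 and Cd109 passed the filter only through these arrays, so the group that read high also admitted them to the test. Ptgis, which makes prostacyclin, read 6.99, 6.94 and 7.32 in Csb against 6.28, 6.03 and 5.50 in WT (2.21-fold, adjusted p = 0.0135), with 2 WT arrays above background. Aspg, an asparaginase, was 2.50-fold higher (adjusted p = 0.0145) with 1 WT array above background, and the WT replicate with little Ttr signal was its lowest array at 5.01. Without WT replicate 3 or Csb replicate 3 all of these but Cd109 lost their calls, Ptgis and Aspg also without WT replicate 2, and Aspg without Csb replicate 2 (highest limma adjusted p = 0.216 for Ptgis and 0.197 for Aspg).

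Lists close to the biochemistry of NAD+ and DNA repair held 1 call between them. NAD metabolism had 11 probes that passed the filter, none called by limma, 2 higher and 1 lower at an unadjusted p under 0.05, with a median log2 fold change of 0.00. Naprt, which makes NAD+ from nicotinic acid, read 9.40, 9.61 and 9.13 in Csb against 8.90, 8.84 and 8.56 in WT (0.61, limma adjusted p = 0.192), and Nadk, the NAD+ kinase, had -0.37 (adjusted p = 0.335). Parp2 was the only called member of 13 probes of sirtuins and PARPs (median -0.08). Nucleotide excision repair had 25 probes with 0 calls by limma, 3 lower at an unadjusted p under 0.05, and a median of 0.04. Its members with the lowest p were Gtf2h3, a subunit of the TFIIH complex (-0.60), and the damage sensor Ddb2 (-0.64).

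Of the p53 targets, 0 of 27 probes were called by limma, 1 was higher at an unadjusted p under 0.05, and the median was 0.06. Cdkn1a had a log2 fold change of 1.28 (adjusted p = 0.395 by limma) that rested on the 12.21 of Csb replicate 3 (-0.35 without both arrays numbered 3), and the p53 target Phlda3 one of 0.72 (adjusted p = 0.522). Glucocorticoid-responsive genes were higher by sign for 13 of 13 probes, with a median of 0.42, 2 of them at an unadjusted p under 0.05 and 0 called. Mt2 (1.46) and the sulfotransferase Sult1a1 (0.93) had the lowest p, each with Csb replicate 3 highest. Without both arrays numbered 3 the median of this list was -0.24, with 4 of 13 probes higher by sign.

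Respiratory chain and ATP synthase genes were higher by sign for 73 of 86 probes, with a median of 0.21, and limma called 0, with 2 higher at an unadjusted p under 0.05. Cox7b (1.05) and Cox8b (1.01), subunits of cytochrome c oxidase, had the lowest p, and WT replicate 3 was the lowest array for both. The median was 0.08 without both arrays numbered 3. Cytosolic ribosomal protein genes, found by their symbols, had a median of 0.26 over 69 probes with 0 calls (3 higher and 1 lower at an unadjusted p under 0.05), and 0.14 without those arrays. The symbols also took in the kinase gene Rps6ka5 (-0.69), which is no ribosomal protein and had the lowest p of that list, before the muscle paralogue Rpl3l (0.82). Immediate early genes had 10 probes, a median of 0.13 and 0 calls by limma, with Arc at -0.50. Egr2 was not above background in WT. Its mean was at least 1.11-fold higher in Csb, but the groups overlapped (limma adjusted p = 0.610). Circadian clock genes had 21 probes, a median of 0.06 and 0 calls. Npas2 was not above background in Csb, and its mean was at least 1.12-fold higher in WT (limma adjusted p = 0.524). In the immediate early and circadian lists only Clock (-0.51) had an unadjusted p under 0.05.

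The Purkinje cell marker Pcp2, at 12.85 ± 0.34 in Csb and 13.11 ± 0.27 in WT (SD, n = 3), showed that the labelled tissue was sampled. Pvalb, taken from the interneuron set, stood at 14.46 ± 0.10 and 14.65 ± 0.13. Whether the arrays differ in the regions dissected was not tested. Limma called 0 markers of any cell type. Granule cell markers were lower by sign in Csb for all 6 probes, 5 of them at an unadjusted p under 0.05, with a median of -0.90. Etv1 (-1.22), a transcription factor of granule cells, and Gabra6 (-1.13), their GABA receptor subunit, had the lowest p (limma adjusted p = 0.211 and 0.216), and Csb replicate 3 was the lowest array for both. The summed intensity of granule cell markers was 10652 to 14933 in Csb and 18230 to 26416 in WT. Without both arrays numbered 3 the median was -0.45, and 0 probes had an unadjusted p under 0.05.

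Purkinje cell markers had a median of -0.52 over 3 probes, astrocyte and Bergmann glia markers 0.16 over 11, with Gfap at 0.90 (adjusted p = 0.293), and oligodendrocyte markers 0.36 over 12, with Mobp at 0.80. Interneuron markers stood at -0.04, endothelial markers at 0.29, meningeal markers at -0.06 and red blood cell markers at -0.01. Choroid plexus markers had a median of 0.66, which was 0.02 without both arrays numbered 3. Markers of neurons of other brain regions had a median of 1.05 over 4 probes, which was 0.07 without both arrays numbered 3. Th, the rate-limiting enzyme of dopamine synthesis, read 8.10, 7.96 and 7.95 in Csb against 6.96, 7.13 and 6.18 in WT (1.25 ± 0.29, limma adjusted p = 0.0694). The groups of Th did not overlap, which held for 14.6% of all probes tested. Chat (ILMN_2827248), another member of this set, read 8.94, 9.09 and 9.24 in Csb against 8.84, 8.95 and 5.94 in WT (1.18 ± 1.05, limma adjusted p = 0.665). WT replicate 3 was the lowest array for both.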

How the data were processed

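Per the file headers, the deposited table holds linear probe intensities (averages per array, before any normalization) with a detection p-value beside each. The submitters' processing notes name GenomeStudio 1.9.0, and other steps before deposit were not given in the sources at hand. The deposited series matrix holds a score per probe and array, equal within 1e-06 to the z-score of the log intensity on 71 of 71 arrays. Here the 29 arrays of the injection arm were background-corrected, quantile-normalized and put on a log2 scale by neqc (limma 3.58.1, R 4.3.3, offset 16); the 42 of the diet arm were treated alike. Probes with a detection p under 0.01 on at least 3 arrays (diet arm 4) were kept, 13948 (14883) of 25697. All 8 groups of an arm entered 1 limma model, with two-sided tests and Benjamini-Hochberg adjusted p under 0.05; interactions are differences of differences.

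Where no array of the dimmer group detected a probe, its fold is a lower bound: the brighter mean against, per array, the higher of the lowest detected level and the probe's own. Of 25697 probes 23978 have 1 symbol, 0 several and 1719 none; 23962 matched RefSeq (GRCm38.p6). Named genes are every called probe with a symbol, called list members and each list's 2 members of lowest p; others were chosen after their values were seen. Lists and members were chosen with earlier results of these data known. Deviations of same-numbered old saline arrays correlated at 0.210, 0.134 and 0.184, and those of differently numbered ones at -0.190 to 0.0569. In young saline mice same-numbered arrays correlated at 0.505, -0.143 and -0.376. Whether the numbers pair arrays is thus not known, and the replicate number was tried as a block over all arrays of an arm. Other alternatives were no background correction, a z-score per array, no filter, the compared groups alone, array weights, background level as a covariate, the series matrix values and leaving out each array. The table names no chip or scan, so no batch could be entered. Array number limits the precision: with 3 against 3 an exact test cannot go below 0.1.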

Additional observations from a re-analysis of the deposited data

Results flagged for a closer look

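Differences of the genotype effect between ages or treatments passed limma's test for the probes already named: by age for 1700123O20Rik (3.75), Samd4 (2.41), Apex1 (1.33), Ang (2.14) and Ogfod3 (1.22), and by NR for 1700123O20Rik (3.50), Samd4 (2.24), Apex1 (1.18), Abhd4 (1.19) and Ang (2.23), as fitted in log2 units; for 1700123O20Rik and Ang no old WT saline array was above background, so these sizes are not measured. Among the called probes, 96 groups of 4 or 5 arrays were searched for a single array far from the others, and 7 were found, where chance gives about 1 in 20 groups. WT young saline replicate 1 was high for Gpnmb (ILMN_2614655) at 4.90 against 4.66 to 4.69, for Upp1 at 4.98 against 4.65 to 4.70 and for Slamf9 at 6.27 against 5.72 to 5.78. No WT young saline array was above background for these probes of Gpnmb and Upp1, and only replicate 1 was for Slamf9. WT young saline replicate 4 was low for Ptgis at 5.63 against 6.19 to 6.26, and WT old NR replicate 2 was low for Apex1 at 9.67 against 9.90 to 9.97. The probe with no gene name, ILMN_2776710, was high on Csb old NR replicate 2 at 8.13 against 7.71 to 7.77 and on WT old NR replicate 3 at 8.59 against 6.82 to 7.28.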

How the results depend on the processing

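For genotype in old saline mice (32 calls), fitting only the compared groups gave 10 calls, 8 of them among the 32, and array weights gave 240. Leaving out 1 array gave 17 (WT replicate 3) to 67 (young Csb NR replicate 2), with 18 without WT replicate 2 and 51 without Csb replicate 1. Leaving out both arrays numbered 3, chosen after seeing the data, gave 17, with 14 among the 32. The block gave 33, and Klhl6, Acta2 and Fcgr4 lost their calls. None of the 32 called probes changed sign. Of 43 uncalled list members, 7 did under some alternative: Cdkn1a (-0.298 with weights, -0.350 without both arrays numbered 3), Ly6c1 (-0.0722 and -0.0725 under these), Hba-a1 (-0.123 and -0.380), Pvalb (0.0277 with series matrix values), and with arrays left out Hba-a1 (-0.512 without WT replicate 3, to 0.600), Ttr (-0.0815, without WT replicate 3, to 3.70), Folr1 (-0.148, without the same array, to 1.45) and Alas2 (-1.05 to 0.316, with 0.316 and 0.101 without WT replicates 1 and 2). Of the called probes, 8 passed under all 8 processing alternatives, 15 with each array left out and 7 under both. On chromosome 14, 4 probes were called with the groups alone and 23 with weights. For young saline mice (7), no filter gave 4, the groups alone 51, weights 76, the replicate block 4, and arrays left out 3 to 41. For old NR mice (8), weights gave 1236 and arrays left out 5 to 839, the last without WT old NR replicate 1. For the standard diet (2054), no filter gave 3712, the groups alone 408, weights 3518, the background covariate 614, and arrays left out 993 to 2704. Genotype by age (5) gave 3 without background correction, 13 with weights, 3 from the series matrix values and 3 to 7 with arrays left out; genotype by NR (5) gave 3 with the groups alone, 14 with weights and 5 to 7 with arrays left out. The cause of these shifts was not tested. Probes near background have only bounded folds.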

Other observations

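Values follow for 2 genes on the Ercc6 side of chromosome 14 that are no member of the called set, chosen after their values were seen. Ncoa4, a receptor for the autophagy of ferritin 0.35 Mb proximal of Ercc6, had a log2 fold change of -0.45 in old saline mice, -2.13 in young saline mice and -2.28 in old NR mice. Plac9a, a neighbour of Tmem254a, was lower by sign in all 3 comparisons, at -0.98, -1.94 and -0.78 in the same order. Neither was called in old saline mice, and neither was called in the test of genotype by age or of genotype by NR. A difference between the comparisons was thus not shown for these probes.

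The number 21 stands in the sample names of both a Csb old saline and a WT old NR array. These arrays correlated at 0.948 and were not identical.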
